A study of Mus musculus with 11 samples.

Results

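The 10 genes described here are *H2-Aa*, *H2-Ab1*, *H2-Eb1*, *Cd74*, *H2-DMa*, *H2-DMb1*, *Ciita*, *Cd86*, *Cd40* and *Cd274*, which encode the MHC class II machinery and the main co-stimulatory surface molecules of antigen-presenting cells. They were chosen by name from the 29307 genes of the deposited count table, and 10 of 10 had enough counts to be among the 12905 genes tested. The study asked how the gut microbiota shapes the transcriptome of hepatic sinusoidal endothelial cells (ECs). It compared 6 conventionally raised (CONV-R) mice, kept under specific-pathogen-free conditions, with 5 germ-free (GF) mice raised in sterile isolators. Both groups were male C57BL/6J mice of 10 to 12 weeks from the same colonies and on the same diet, with no further treatment of either. Livers were digested, enriched with CD146 magnetic beads and sorted for CD31+ CD105+ CD146+ cells, and 1 RNA library was made per mouse. Sorted cells were of low viability, GF livers gave fewer sorted cells and less RNA than CONV-R livers, and all RNA was amplified as whole-transcriptome cDNA before library preparation, so the group and the RNA yield cannot be told apart.

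MHC class II molecules present peptides from engulfed material to CD4+ T cells. An alpha chain and a beta chain (H2-Aa with H2-Ab1 for the I-A molecule, and H2-Eb1 as the beta chain of I-E) are assembled on the invariant chain CD74, whose remnant is later exchanged for a peptide with the help of the H2-DM heterodimer. CIITA is the co-activator that switches the class II genes on through the RFX and NF-Y factors at their promoters. CD86 and CD40 supply co-stimulation, whereas CD274 (PD-L1) restrains T cells. Liver sinusoidal ECs are known to take up and present antigen and to favour T cell tolerance, and Kupffer cells, the resident macrophages in the same vessels, also carry class II molecules.

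Class II promoters hold an X box and, closer to the start site, a Y box, which bind the RFX and NF-Y complexes. The stretches of *H2-Aa* and *H2-Eb1* are shown because both genes differed between the groups and share these letters; each runs over the 120 bases up to the start site given by RefSeq on GRCm38.p6, at chr17:34287824-34287943 on the minus strand for *H2-Aa* and at chr17:34305747-34305866 on the plus strand for *H2-Eb1*. They are written 5′ to 3′ along the gene's own strand, and the capitals mark the letters GNAACT (N is any base) and GATTGG.
H2-Aa: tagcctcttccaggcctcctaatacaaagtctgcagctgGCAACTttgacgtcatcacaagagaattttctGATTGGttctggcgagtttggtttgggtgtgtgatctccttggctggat
H2-Eb1: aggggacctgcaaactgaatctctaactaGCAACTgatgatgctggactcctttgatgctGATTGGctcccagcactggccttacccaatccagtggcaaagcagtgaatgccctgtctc
In *H2-Aa* GCAACT began 81 bases before the start site and GATTGG 49 bases before it, with 26 bases between them. In *H2-Eb1* they began 91 and 60 bases before the start site, with 25 bases between them. *H2-DMb1* held GTAACT and GATTGG in the same order with 26 bases between them, at 94 and 62 bases before its start site. RefSeq promoter windows, from 250 bases before to 50 after the start site, were at hand for 5 of the 10 genes, with 6 windows between them. The windows of *H2-DMa* and *Cd274* did not hold the pair at this spacing. Entries for *H2-Ab1*, *Ciita*, *Cd86* and *Cd40* were not used here, and no sequence of *Cd74* was read. Both strands were searched, the 2 motifs cannot overlap at the required spacing of 20 to 30 bases, and the letters were picked after these windows had been seen. Of all 32851 windows, 42.8% held GNAACT, 16.1% held GATTGG and 0.204% (67 windows) held the spaced pair. A match describes letters and not a bound site.

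Total counts ran from 7242717 to 16164588 per library, over the 11 libraries. CPM values are read counts scaled to a common, TMM-adjusted library total, and a Log2FC is the log2 fold change of GF over CONV-R mice. Of the 12905 tested genes, 965 (7.48%) passed an adjusted p of 0.05, 620 (4.8%) being higher and 345 (2.67%) lower in GF mice, and the median Log2FC of all tested genes was -0.01. The 15 sinusoidal endothelial markers all passed the filter and together made up 37445 to 53421 CPM of each library. Among them *Stab2*, a scavenger receptor, averaged 7482 CPM in CONV-R and 7523 CPM in GF mice, *Mrc1* 6143 and 6652 CPM, and *Fcgr2b* 6570 and 5876 CPM. For the sorted antigens CD31, CD105 and CD146, the genes *Pecam1*, *Eng* and *Mcam* gave Log2FC values of 0.46, 0.26 and 0.37. Over the 15 markers the median Log2FC was 0.33, with 11 values above 0 and a highest value of 0.63 (*Lyve1*). No endothelial marker passed edgeR's quasi-likelihood test, Benjamini-Hochberg adjusted (0 of 15; 7 at an unadjusted p under 0.05, and 0 of 15 with DESeq2). GF 6 stood apart in several of the values below and CONV-R 3 in that of *Cd274*, so values without them are given beside several results.

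Of the 10 genes, 5 were higher in GF mice and 0 were lower by edgeR's quasi-likelihood test, with p adjusted by Benjamini-Hochberg over all tested genes, beside 4.8% and 2.67% of all tested genes. The 5 were the chain genes *H2-Aa*, *H2-Ab1* and *H2-Eb1*, the invariant chain gene *Cd74* and *H2-DMa*, with transcript levels 4.40 to 5.18 times those of CONV-R mice. *H2-DMa* met the filter on low counts through the GF group, in which it is high: 5 of 5 GF but 2 of 6 CONV-R libraries reached the 0.8294 CPM that the filter asks of 5 libraries, and it is counted with that limit. *Cd86* also needed GF libraries to meet it (5 of 5 GF and 4 of 6 CONV-R), and so did *H2-DMb1* (2 of 5 GF and 3 of 6 CONV-R). *H2-DMb1*, *Ciita*, *Cd86*, *Cd40* and *Cd274* did not pass. With DESeq2, which called 9.83% of the genes it tested, 4 of the 9 with an adjusted p passed. The median Log2FC of the 10 was 1.68, beside -0.01 over all tested genes, and 8 of the 10 values were positive. The 2 with a negative value, *Cd40* and *Cd274*, did not pass at an unadjusted p under 0.05 either, nor with DESeq2.

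**Figure D1:**
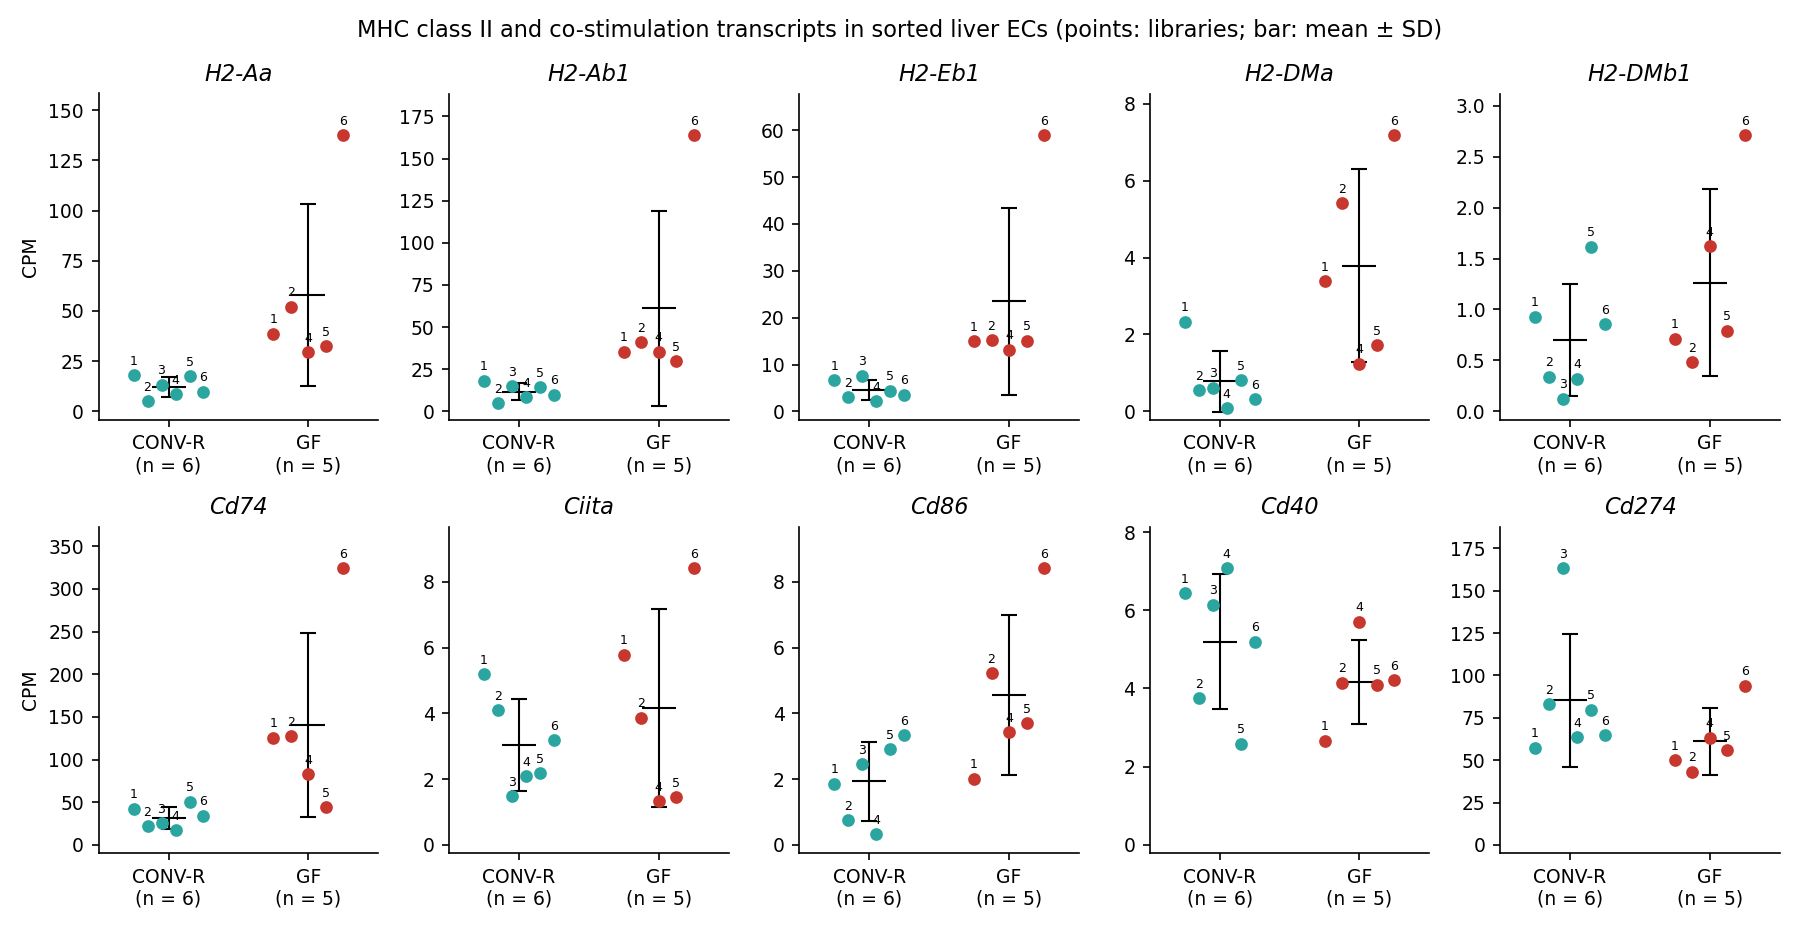
Expression in CPM (vertical axes, linear) of each of the 10 genes in 6 CONV-R (turquoise) and 5 GF (red) libraries, with replicate numbers beside the points and bars for mean ± SD. In *H2-Aa*, *H2-Ab1* and *H2-Eb1* the 5 GF points lie above the 6 CONV-R points, and GF 6 is the highest GF library in 9 of the 10 genes.

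*H2-Aa* encodes the alpha chain of I-A. In the 5 GF libraries (1, 2, 4, 5 and 6) it stood at 38.6, 52.1, 29.4, 32.4 and 138 CPM, and in CONV-R mice it ranged from 5.12 to 18.0 CPM around a median of 11.6 CPM. Thus every GF library lay above every CONV-R library, and GF 6 lay far above the other 4. The means were 58.0 ± 45.4 CPM (SD, n = 5) in GF and 12.1 ± 5.12 CPM (SD, n = 6) in CONV-R mice. The Log2FC was 2.26 ± 0.38 (SE), with a 95% interval from 1.45 to 3.07 and an adjusted p of 0.00167 (edgeR's quasi-likelihood test, Benjamini-Hochberg adjusted). Without GF 6 it was 1.66 (adjusted p = 0.00312, same test by edgeR).

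*H2-Ab1* encodes the beta chain that pairs with H2-Aa. Its GF libraries held 35.5, 41.1, 35.4, 29.6 and 164 CPM, and its CONV-R libraries 4.98 to 18.2 CPM around a median of 12.1 CPM. Again the groups did not overlap, and 4 of the GF libraries lay within a narrow band below GF 6. Its Log2FC of 2.37 ± 0.42 (SE; 95% interval 1.48 to 3.26) had an adjusted p of 0.00232 in edgeR's quasi-likelihood test. Leaving out GF 6 lowered it to 1.59, with an adjusted p of 0.00291 by edgeR. DESeq2 estimated 2.38 and gave no p for this gene, which it withholds where 1 library holds an outlying count.

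The I-E beta chain gene *H2-Eb1* was the weakest of these chain transcripts per kb of exon. It was found at 15.01, 15.2, 13.1, 15.1 and 59.0 CPM in the GF libraries, against 2.17 to 7.61 CPM in CONV-R mice, where the median was 4.01 CPM. These groups did not overlap either, and GF 1, 2, 4 and 5 were close to one another. The Log2FC was 2.36 ± 0.41 (SE; 95% interval 1.502 to 3.23; adjusted p = 0.00187 by edgeR). Without GF 6 it was 1.69 (adjusted p = 0.00336 by edgeR). C57BL/6 mice carry a defective gene for the alpha partner of H2-Eb1 and lack I-E at the cell surface, so the transcript has no surface I-E as a counterpart in this strain.

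*Cd74*, the invariant chain gene on chromosome 18, was the most abundant class II transcript per kb of exon. The GF libraries held 126, 127, 82.6, 43.9 and 324 CPM, and the CONV-R libraries 17.3 to 50.4 CPM with a median of 29.8 CPM. The groups overlapped through a single pair, since GF 5 lay below CONV-R 5. Its Log2FC was 2.14 ± 0.38 (SE; 95% interval 1.33 to 2.95; adjusted p = 0.00249 by edgeR). Without GF 6 the value was 1.57 (adjusted p = 0.0065 by edgeR).

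**Figure D2:**
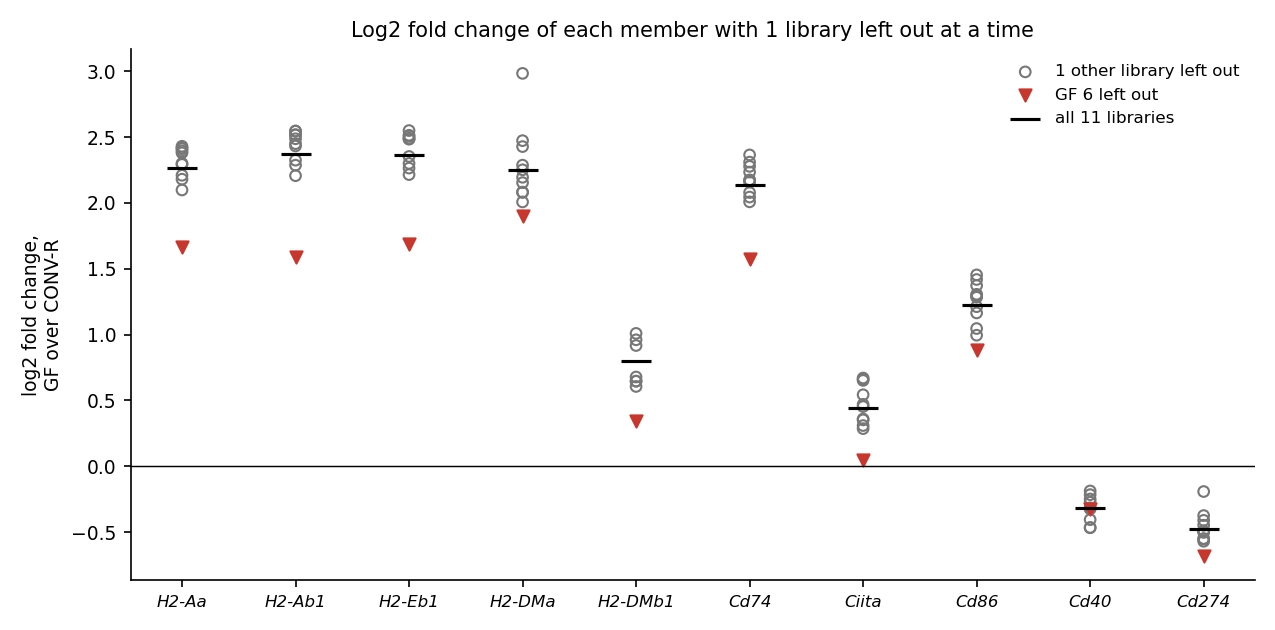
Log2FC (GF over CONV-R, vertical axis) of each of the 10 genes with all 11 libraries (black bars), with GF 6 left out (red triangles) and with 1 other library left out (open circles). *H2-Aa*, *H2-Ab1*, *H2-Eb1* and *Cd74* stay at 1.57 or above, and leaving out GF 6 gives the lowest value for each of the 8 genes with a positive Log2FC.

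With 1 library left out at a time, *H2-Aa*, *H2-Ab1*, *H2-Eb1* and *Cd74* passed in 11 of 11 fits each. The lowest Log2FC values, 1.66, 1.59, 1.69 and 1.57, all came from leaving out GF 6. Without both GF 6 and CONV-R 3 the values were 1.70, 1.67, 1.88 and 1.52, and the largest adjusted p of the 4 was 0.0107, that of *Cd74* (edgeR's quasi-likelihood test, Benjamini-Hochberg adjusted).

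The H2-DM heterodimer, which edits the peptides bound to class II, was much weaker per kb of exon. *H2-DMa* stood at 3.38, 5.41, 1.24, 1.72 and 7.19 CPM in the GF libraries, and from 0.0803 to 2.33 CPM (median 0.580 CPM) in CONV-R mice. All GF libraries exceeded the other 5 CONV-R libraries, but CONV-R 1 lay above GF 4 and GF 5. These levels rest on few reads, 187 counts over the GF libraries and 58 over the CONV-R libraries. The Log2FC was 2.25 ± 0.62 (SE; 95% interval 0.94 to 3.56; adjusted p = 0.0348 by edgeR). This call was the least stable of the 5: it was kept when CONV-R 1, GF 4 or GF 5 was left out and lost when any of the other 8 was, with adjusted p values up to 0.105 (without GF 6, Log2FC 1.90; edgeR). Without CONV-R 1 the Log2FC was 2.98 (adjusted p = 0.00659 by edgeR). With at least 10 counts asked of every library, *H2-DMa* was not tested. Exons of *H2-DMa* overlap those of *Brd2* on the opposite strand, and the strand setting of the counting is not given in the sources used here. *Brd2* averaged 124 CPM in CONV-R and 153 CPM in GF mice, with a Log2FC of 0.31 (adjusted p = 0.115 by edgeR), and its part in the *H2-DMa* value was not tested.

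*H2-DMb1*, for the other subunit of H2-DM, held 0.715, 0.483, 1.62, 0.793 and 2.71 CPM in the GF libraries and 0.123 to 1.62 CPM in CONV-R mice (median 0.598 CPM). The groups overlapped widely. Its Log2FC of 0.80 had a 95% interval from -0.47 to 2.07 (adjusted p = 0.463 by edgeR), which overlaps that of *H2-DMa*. The levels rest on 53 counts over the CONV-R libraries and 59 over the GF libraries. The Log2FC was 0.34 without GF 6 and 0.16 without GF 6 and CONV-R 3. *H2-DMb1* and its neighbour *H2-DMb2* are near-identical, so reads may be split between them and the value is uncertain; *H2-DMb2* had too few counts to be tested.

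*Ciita*, the class II co-activator, did not differ beyond the spread between mice. Its GF libraries stood at 5.78, 3.86, 1.33, 1.45 and 8.41 CPM, and its CONV-R libraries at 1.47 to 5.20 CPM around a median of 2.68 CPM. The highest and the lowest of the 11 libraries were both GF. The Log2FC was 0.44, with a 95% interval from -0.53 to 1.42 (adjusted p = 0.617 by edgeR), so the interval ends below the estimates of the 3 chain genes and *Cd74*; the difference between genes was not tested. Without GF 6 the value was 0.05, and without GF 6 and CONV-R 3 it was -0.079 (adjusted p = 0.947 by edgeR). Exons of *Ciita* overlap those of *Dexi* on the opposite strand.

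Among the co-stimulatory genes, *Cd86* encodes a ligand of CD28 and CTLA-4 on T cells. It stood at 2.01, 5.22, 3.43, 3.70 and 8.41 CPM in the GF libraries and at 0.321 to 3.34 CPM in CONV-R mice (median 2.16 CPM). GF 1 lay below 3 of the CONV-R libraries, while the other 4 GF libraries lay above all of them. The Log2FC was 1.22 ± 0.50 (SE), with a 95% interval from 0.17 to 2.28 and an adjusted p of 0.152 by edgeR, so it did not pass. Without GF 6 the value was 0.89 (adjusted p = 0.362 by edgeR).

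*Cd40*, the receptor through which T cells license antigen-presenting cells, held 2.66, 4.15, 5.71, 4.10 and 4.205 CPM in the GF libraries. In CONV-R mice it ranged from 2.58 to 7.07 CPM with a median of 5.67 CPM, so the GF values lay inside the CONV-R range. The Log2FC was -0.32, with a 95% interval from -0.96 to 0.32 (adjusted p = 0.579 by edgeR). *Cd40* was the single gene of the 10 in which GF 6 was not the highest GF library.

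*Cd274* (PD-L1), the co-inhibitory ligand, was the strongest of these surface molecules per kb of exon. Its GF libraries held 49.8, 43.3, 63.3, 55.9 and 94.0 CPM, and its CONV-R libraries 57.3 to 163 CPM, with a median of 72.3 CPM. The groups overlapped, and CONV-R 3 lay far above the rest. The Log2FC was -0.48 with a 95% interval from -1.01 to 0.05 (adjusted p = 0.267 by edgeR), and it was -0.19 without CONV-R 3 and -0.68 without GF 6. None of these fits passed.

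Levels of different genes were compared as CPM per kb of exon length. In CONV-R mice the order was *Cd274* (23.6 ± 10.9 CPM per kb, SD, n = 6), *Cd74* (19.0 ± 7.61), *H2-Ab1* (4.59 ± 1.92), *H2-Aa* (3.18 ± 1.35), *H2-Eb1* (2.35 ± 1.09), *Cd40* (1.53 ± 0.506), *Cd86* (0.530 ± 0.328), *H2-DMb1* (0.415 ± 0.328), *Ciita* (0.318 ± 0.147) and *H2-DMa* (0.226 ± 0.232). In GF mice *Cd74* came first (83.8 ± 64.4 CPM per kb, SD, n = 5), followed by *H2-Ab1* (23.8 ± 22.4), *Cd274* (16.9 ± 5.45), *H2-Aa* (15.3 ± 11.9), *H2-Eb1* (12.1 ± 10.2), *Cd86* (1.24 ± 0.666), *Cd40* (1.22 ± 0.317), *H2-DMa* (1.10 ± 0.727), *H2-DMb1* (0.752 ± 0.545) and *Ciita* (0.437 ± 0.315). Thus *Cd274* had rank 1 in CONV-R and rank 3 in GF mice. The GF order turned on GF 6: over the other 4 GF libraries *Cd274* averaged 14.7 and *H2-Ab1* 13.8 CPM per kb, which puts *Cd274* at rank 2, and *Cd40* at 1.22 lay above *Cd86* at 0.981 CPM per kb. In CONV-R mice the one neighbouring pair whose ranges did not overlap was *Cd74* and *H2-Ab1*, at 10.3 to 30.02 and 1.94 to 7.10 CPM per kb. In GF mice, with all 5 libraries, it was *H2-Eb1* and *Cd86*, at 6.76 to 30.4 and 0.550 to 2.30 CPM per kb. All other neighbours in these 2 orders overlapped.

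The class II partners were 20 further genes of the same pathway, namely other class II chains, the promoter factors, and the lysosomal proteases and ligases that process the invariant chain and class II. Of the 17 tested, 2 were higher and 0 lower in GF mice, with a median Log2FC of 0.10. *Ctss*, for cathepsin S, which trims the invariant chain, stood at 41.6, 46.2, 36.9, 38.3 and 180 CPM in the GF libraries and at 15.2 to 31.6 CPM in CONV-R mice. The groups did not overlap, as with the chain genes, and GF 6 was again far above the rest. Its Log2FC was 1.56 ± 0.37 (SE; adjusted p = 0.0156 by edgeR), and 0.81 without GF 6 (adjusted p = 0.0283 by edgeR). DESeq2 gave no p for it. *Nfya*, an NF-Y subunit, had 114, 120, 150, 116 and 131 CPM in the GF libraries and 79.3 to 116 CPM in CONV-R mice, and these ranges overlapped. The Log2FC was 0.41 ± 0.12 (SE; adjusted p = 0.0419 by edgeR), and the call was lost without GF 6 (adjusted p = 0.0904 by edgeR) and also without CONV-R 2, 4, 5 or 6 or GF 2 or 4, with adjusted p values up to 0.108 (edgeR).

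The promoter factor *Rfx5*, named here after its values were seen, went the other way without passing the test. It held 22.7, 19.7, 26.2, 24.7 and 22.7 CPM in the GF libraries and 26.8 to 32.6 CPM in CONV-R mice, with no overlap. Its Log2FC was -0.35 (adjusted p = 0.114 by edgeR). Of all tested genes, 5.59% did not overlap between the groups in either direction, and 3.22% had all GF libraries above the CONV-R libraries. Of the 10 genes described here, 3 did so, and of the 17 tested partners *Ctss* alone.

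**Figure D3:**
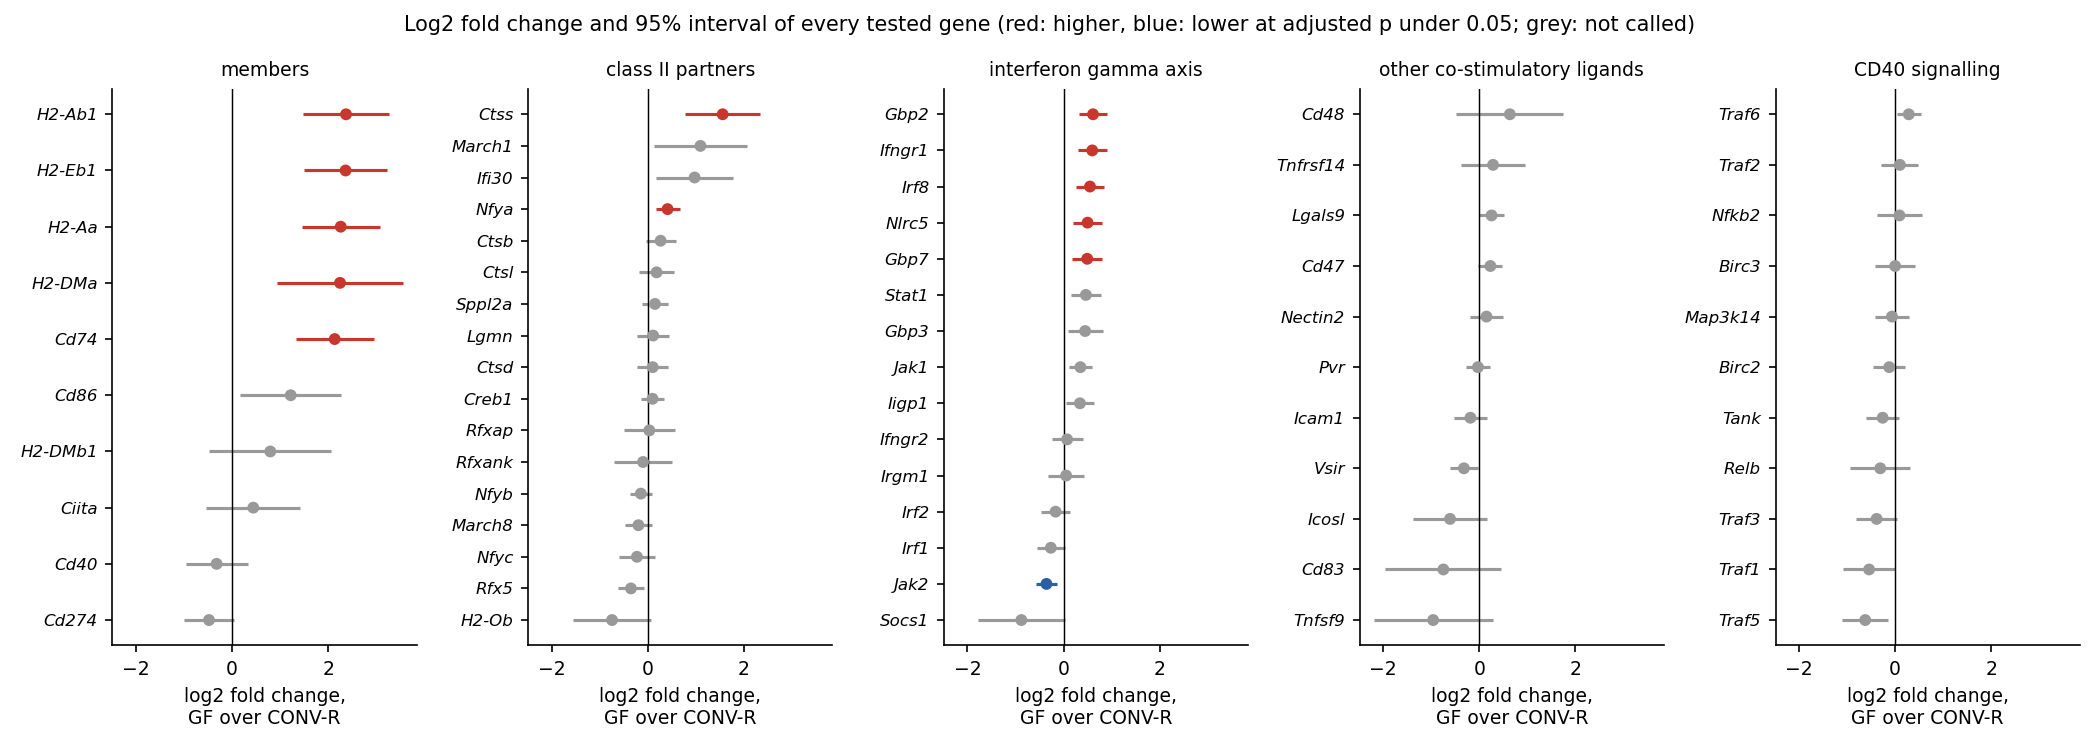
Log2FC (GF over CONV-R, horizontal axes) with its 95% interval for each tested gene of the 10 described here and of 4 related lists. Red genes were higher and blue genes lower in GF mice at an adjusted p under 0.05 by edgeR, and grey genes did not pass; the 5 red genes of the first panel lie between 2.14 and 2.37, whereas the red genes of the interferon gamma list lie between 0.49 and 0.61.

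Interferon gamma is the classical inducer of *Ciita* and of class II genes. Of the 16 genes of its receptor, signalling and response list, 15 were tested, 5 were higher and 1 was lower in GF mice, and their median Log2FC was 0.35. *Ifngr1*, for the ligand-binding receptor chain, stood at 82.6, 81.7, 108, 65.8 and 123 CPM in the GF libraries and at 57.1 to 64.3 CPM in CONV-R mice, without overlap (Log2FC 0.60, adjusted p = 0.0154 by edgeR). *Gbp2*, a guanylate-binding protein gene, had a Log2FC of 0.61 (adjusted p = 0.0136 by edgeR). *Irf8*, for a transcription factor of myeloid cells, had 0.55 (adjusted p = 0.025 by edgeR). *Nlrc5*, for the co-activator of MHC class I genes, had 0.50 (adjusted p = 0.0461 by edgeR). *Gbp7* had 0.49 (adjusted p = 0.0496 by edgeR). *Jak2*, for a kinase of the interferon gamma receptor, was lower in each GF library (135 to 169 CPM) than in any CONV-R library (173 to 204 CPM), with a Log2FC of -0.35 (adjusted p = 0.0402 by edgeR). Without GF 6, *Gbp2* still passed, whereas *Ifngr1*, *Irf8*, *Nlrc5*, *Gbp7* and *Jak2* did not, with adjusted p values from 0.0511 to 0.140 (edgeR). With any 1 library left out, *Gbp2* passed in 11 of 11 fits and *Ifngr1* in 10. *Irf8* was also lost without CONV-R 4, 5 or 6, *Jak2* without CONV-R 2, 4, 5 or 6 or GF 1 or 2, *Nlrc5* in every such fit except those without CONV-R 3, GF 1 or GF 4, and *Gbp7* in all but those without CONV-R 5 or GF 5. Without both GF 6 and CONV-R 3, *Gbp2* did not pass either (Log2FC 0.51, adjusted p = 0.0574 by edgeR), and *Nlrc5* was the one of the 6 that did (0.60, adjusted p = 0.0279 by edgeR).

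Of 18 further co-stimulatory and co-inhibitory ligands and adhesion molecules, 11 were tested and 0 passed edgeR's quasi-likelihood test (1 at an unadjusted p under 0.05; 0 of 14 with DESeq2). The smallest p values belonged to *Vsir*, for the inhibitory ligand VISTA, with 143 to 230 CPM in GF and 190 to 296 CPM in CONV-R mice (Log2FC -0.32, adjusted p = 0.177 by edgeR), and to *Lgals9*, for galectin-9 (Log2FC 0.26, adjusted p = 0.231 by edgeR). *Cd80*, the close relative of *Cd86*, had too few counts for a test, at no more than 0.966 CPM in any library. Of the 11 genes that carry the signal of CD40, 0 passed (2 at an unadjusted p under 0.05; 0 of 11 with DESeq2). *Traf5*, for an adaptor of CD40, had a Log2FC of -0.62 (adjusted p = 0.111 by edgeR), and *Traf6*, for another adaptor, 0.29 (adjusted p = 0.151 by edgeR).

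On the genome, 5 of the 10 genes lie in the class II region of chromosome 17. *H2-DMa* (chr17:34119541-34139101) and *H2-DMb1* (chr17:34153072-34160230) lie at one end, and *H2-Ab1* (chr17:34257689-34269419), *H2-Aa* (chr17:34282744-34287823) and *H2-Eb1* (chr17:34305867-34316674) at the other (GRCm38, GENCODE M21 annotation). Of the 17 listed genes between *H2-Oa* and *H2-Eb2*, a stretch of 249 kb, 12 were tested. The 7 tested neighbours had Log2FC values from -0.74 to 0.43. None of them passed edgeR's quasi-likelihood test (0 of 7; 3 at an unadjusted p under 0.05, and 0 of 7 with DESeq2), and their smallest adjusted p was 0.115. They include *Psmb8*, *Psmb9*, *Tap1* and *Tap2*, which serve MHC class I presentation and had Log2FC values of 0.43, 0.22, 0.37 and 0.12. *H2-Ob*, for a chain of the H2-DM inhibitor H2-O, lies next to *H2-Ab1* in the region and had 1.86 CPM in GF and 3.14 CPM in CONV-R mice (Log2FC -0.74, adjusted p = 0.264 by edgeR).

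**Figure D4:**
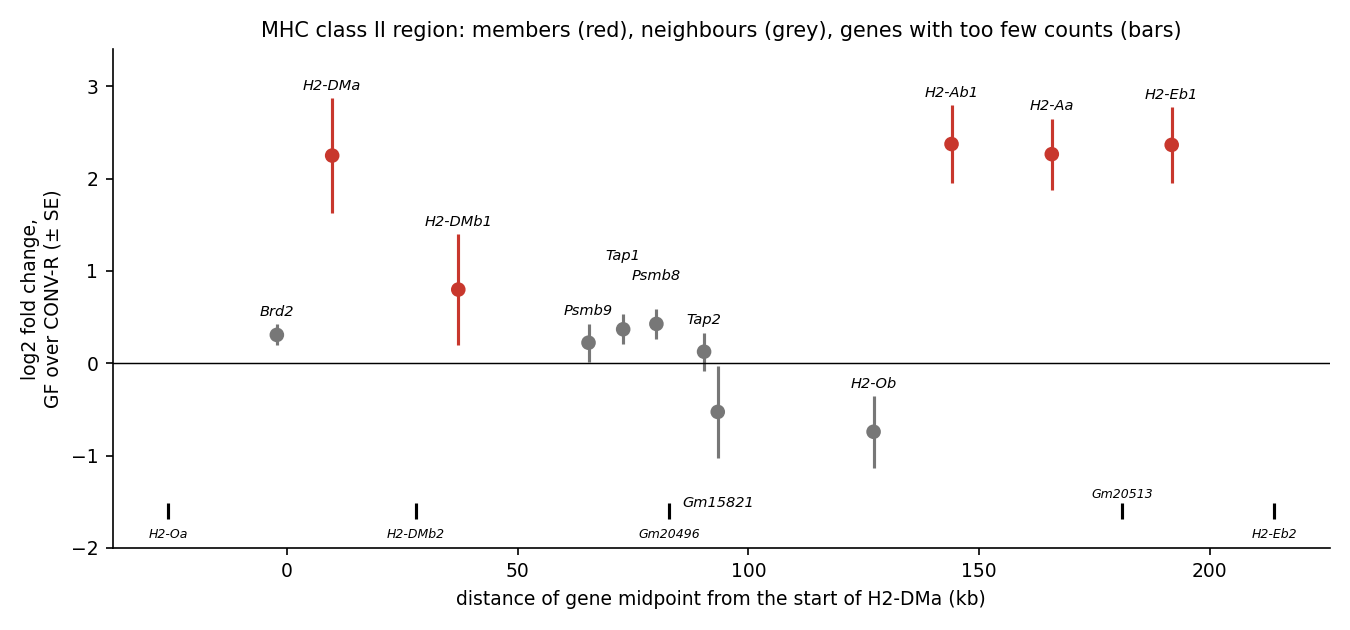
Log2FC ± SE (vertical axis) of the 12 tested genes of the class II region against the distance of each gene's midpoint from the start of *H2-DMa* in kb (horizontal axis); red points are the 5 genes described here, grey points the 7 neighbours, and black bars near the bottom mark 5 genes with too few counts. *H2-Ab1*, *H2-Aa* and *H2-Eb1* lie above 2, and the grey points lie between -0.74 and 0.43.

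Markers of other liver cells were read in the same libraries, since bulk RNA from sorted cells cannot tell fewer cells of a type from less RNA per cell. All 12 Kupffer cell and macrophage markers passed the filter, and their median Log2FC was 1.54. Of the 12, 8 were higher and 0 lower in GF mice, beside 4.8% and 2.67% of all tested genes. *Clec4f*, a lectin gene of Kupffer cells, had Log2FC 1.55 (adjusted p = 0.0262 by edgeR), *Lyz2*, the lysozyme gene of myeloid cells, 1.41 (adjusted p = 0.0236 by edgeR) and *Cd5l* 1.38 (adjusted p = 0.0539 by edgeR). The summed level of the 12 markers was 338, 453, 269, 292 and 1174 CPM in the GF libraries and 111 to 288 CPM in CONV-R mice (median 151 CPM). GF 6 was thus highest in the macrophage sum as in the class II genes, and the groups overlapped only in that CONV-R 1 lay above GF 4. *Clec4f* held 252 CPM in GF 6 and 42.4 to 104 CPM in the other GF libraries. The 8 calls were not checked without GF 6. At least 1 count of *Clec4f*, *Cd5l*, *Timd4*, *Adgre1*, *Csf1r*, *Marco*, *Vsig4*, *C1qb*, *C1qc*, *Cd68* and *Lyz2* was found in every library.

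The sum of *H2-Aa*, *H2-Ab1*, *H2-Eb1* and *Cd74* was 215, 236, 161, 121 and 685 CPM in the GF libraries and 35.0 to 86.6 CPM in CONV-R mice. Divided by the macrophage sum of the same library, it was 0.634, 0.519, 0.597, 0.415 and 0.583 in GF mice, and 0.229 to 0.541 with a median of 0.311 in CONV-R mice. These ratios overlapped through CONV-R 5 at 0.541 and CONV-R 3 at 0.433. The class II chains and the macrophage markers therefore differed between the groups in the same direction, and the part of macrophage RNA in the class II values was not tested.

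**Figure D5:**
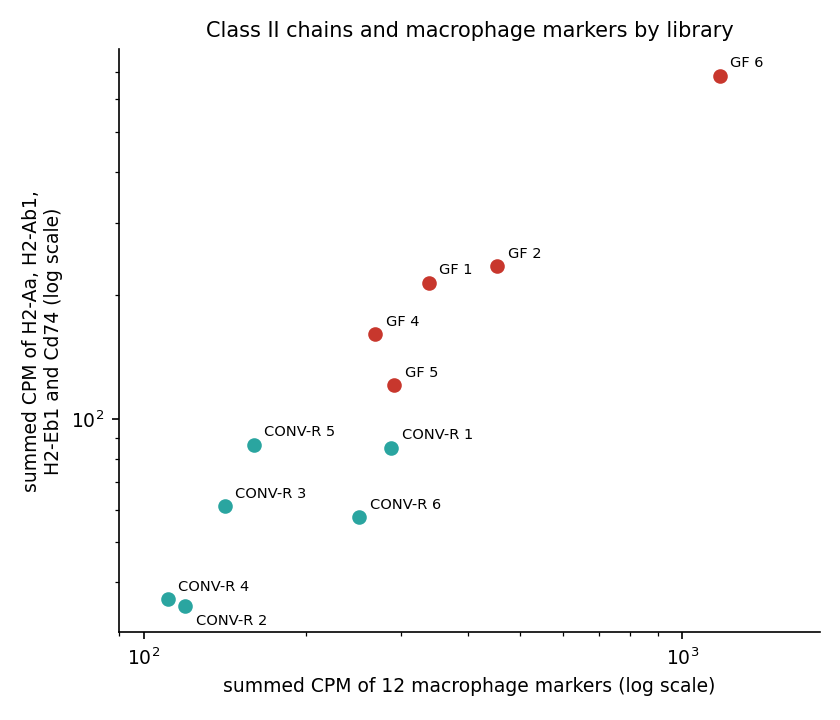
Summed CPM of *H2-Aa*, *H2-Ab1*, *H2-Eb1* and *Cd74* (vertical axis, log scale) against the summed CPM of 12 macrophage markers (horizontal axis, log scale), 1 point per library, turquoise for CONV-R and red for GF. GF 6 is highest on both axes, at 1174 and 685 CPM, and CONV-R 4 and CONV-R 2 are lowest.

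Markers of other class II-bearing cells were read in the same way. Of 10 B cell and plasma cell markers, 8 were tested and 0 passed edgeR's quasi-likelihood test (5 at an unadjusted p under 0.05; 2 of 9 with DESeq2), with 8 of 8 Log2FC values negative. Their sum was 33.6 to 49.7 CPM in GF and 56.3 to 81.2 CPM in CONV-R mice, most of it from the kinase gene *Blk* (Log2FC -0.40, adjusted p = 0.129 by edgeR), followed by *Fcrla* (-1.004, adjusted p = 0.0868 by edgeR) and *Pax5* (-1.05, adjusted p = 0.172 by edgeR). The part of B cell RNA in the class II values was not tested. Of 10 dendritic cell markers, 3 were tested by edgeR and 1 was lower (3 at an unadjusted p under 0.05), and with DESeq2 2 of 8 passed. Their sum was 599 to 835 CPM in GF and 686 to 869 CPM in CONV-R mice, nearly all of it from *Zbtb46* and *Clec9a*. The gene called by edgeR, *Zbtb46*, is also known from endothelium and stood at 475 CPM in CONV-R and 362 CPM in GF mice (Log2FC -0.39, adjusted p = 0.0443 by edgeR). *Clec9a* stood at 265 and 336 CPM (Log2FC 0.34, adjusted p = 0.107 by edgeR), whereas *Batf3* averaged 0.830 and 0.745 CPM. *Siglech*, also tested, had a Log2FC of -2.19 (adjusted p = 0.171 by edgeR), on 74 counts in CONV-R and 11 in GF mice. The second gene called by DESeq2, *Ccr7*, was lower in every GF library (at most 0.193 CPM) than in any CONV-R library (0.482 to 1.32 CPM), with an adjusted p of 0.00806 by DESeq2. The defining dendritic cell genes *Xcr1* and *Flt3* had no count in 5 and 6 of the 11 libraries and reached at most 0.676 and 1.64 CPM.

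Of 10 T and NK cell markers, *Il2rb* was the one with enough counts, and it did not pass (Log2FC 0.43, adjusted p = 0.795 by edgeR; 0 at an unadjusted p under 0.05, and 0 of 8 with DESeq2). *Il2rb*, *Cd3e* and *Cd4* averaged 0.340 to 0.905 CPM in either group. The 9 listed hepatocyte markers were all tested and 0 passed by edgeR (2 at an unadjusted p under 0.05; 0 of 9 with DESeq2). *Alb*, *Apob* and *Cyp2e1*, those with the highest mean CPM over the 11 libraries, had Log2FC values of 0.23, -0.07 and 0.01. Over the whole list the values ran from -1.57 (*Serpina1c*) to 1.32 (*Ttr*). Of 10 stellate cell markers, 4 were tested and 0 passed by edgeR (2 at an unadjusted p under 0.05; 1 of 8 with DESeq2). *Hgf*, *Rgs5* and *Lrat* had Log2FC values of 0.46, -0.21 and -1.43.

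The 5 genes whose log2 CPM most resembled the mean log2 CPM of *H2-Aa*, *H2-Ab1*, *H2-Eb1* and *Cd74* over the 11 libraries were *Chrm3* (Pearson r = 0.96), *Slc16a7* (0.95), *Nek9* (0.95), *Gbp2b* (0.95) and *Plbd1* (0.94). The libraries share the difference between the groups and the high values of GF 6. The r values and the group differences of these 5 genes are therefore a description that follows from how they were picked. *Chrm3*, a muscarinic receptor gene, stood at 1.10, 2.12, 1.62, 1.85 and 6.65 CPM in the GF libraries and at no more than 0.310 CPM in CONV-R mice, so it met the filter on low counts through the GF group alone (11 counts over the CONV-R libraries). *Slc16a7*, for a monocarboxylate transporter, held 3.57, 3.48, 3.52, 2.91 and 6.92 CPM in the GF libraries and 0.819 to 1.94 CPM in CONV-R mice. The kinase gene *Nek9* stood at 193 to 228 CPM in GF and 151 to 171 CPM in CONV-R mice, without overlap (Log2FC 0.33, adjusted p = 0.0358 by edgeR). *Gbp2b*, another guanylate-binding protein gene, held 3.62 to 25.4 CPM in GF and 1.45 to 4.2 CPM in CONV-R mice, and *Plbd1* 5.39 to 16.95 and 1.16 to 3.72 CPM. GF 6 was the highest library for all 5. Within the groups, after their means were taken out, r was 0.81 to 0.89. Without GF 6, the 5 most similar genes were *Scamp2*, *Gcnt2*, *Chrm3*, *Igtp* and *Slc16a7*, of which 2 are shared with the first 5.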

How the data were processed

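RNA-seq libraries of sorted liver ECs from 6 CONV-R and 5 GF mice were analysed, grouped by the sample labels. The authors trimmed reads with Trim Galore, mapped them to GRCm38 with STAR and counted them per gene with featureCounts; 1 further GF library was removed by them for few mapped reads. The deposited raw counts are not normalized. The authors also deposited log2 values normalized with the DESeq method, which were used for an alternative. Annotation release and strand setting are not given in the sources used here. Totals ran from 7242717 to 16164588 counts per library, and the errors given here cover counting error together with the spread between mice.

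Counts were analysed in R 4.3.3 with edgeR 4.0.16: filterByExpr, TMM scaling and the quasi-likelihood test with all 11 libraries and no covariate, with Benjamini-Hochberg adjustment over 12905 genes and a threshold of 0.05. Log2 CPM used a prior count of 2. DESeq2 1.42.0, its size factors, voom of limma 3.58.1, limma on the deposited log2 values, other filters, a replicate block and each library left out were alternatives; leaving out GF 6 and CONV-R 3 together, and GF 6 for the similarity, was added after the data were seen. Same-numbered libraries are different mice. The scripts were tested on simulated data. Positions and exon lengths came from GENCODE M21, to which 29081 of 29307 gene identifiers were matched, and promoters from RefSeq (GRCm38.p6). Plots were drawn with matplotlib 3.10.9.

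The 10 genes and all lists were chosen with earlier results of these data known. The text names each of the 10, every gene of the 4 partner lists that passed (or the 2 with the smallest p where fewer than 2 did), the 5 most similar genes, the genes of the sorted antigens and the 3 most abundant genes of each marker list.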

Additional observations from a re-analysis of the deposited data

Results flagged for a closer look

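Dixon's criterion at 95% was applied to 48 groups of values. Normally distributed values meet it in about 1 group of 20, and its rate for CPM, read here on a linear scale, was not tested. In 8 of the 48 groups the highest library stood apart from the others of its group. In 6 of the 8 this was GF 6, with 138 CPM of *H2-Aa* (the next GF library held 52.1 CPM), 164 CPM of *H2-Ab1* (next 41.1 CPM), 59.0 CPM of *H2-Eb1* (next 15.2 CPM), 180 CPM of *Ctss* (next 46.2 CPM), 685 CPM for the sum of the 3 chain genes and *Cd74* (next 236 CPM) and 1174 CPM for the sum of the macrophage markers (next 453 CPM). These 6 values come from 1 mouse and share genes, so they are not independent. The other 2 were *H2-DMa* in CONV-R 1, at 2.33 CPM (next 0.808 CPM), and *Cd274* in CONV-R 3, at 163 CPM (next 83.0 CPM).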

How the results depend on the processing

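*H2-Aa*, *H2-Ab1*, *H2-Eb1* and *Cd74* kept their direction and passed under every alternative that gave them a p, with Log2FC values from 1.52 to 2.38 in alternatives other than leaving out 1 library, and 4 or 5 of the 10 genes passed in each fit. DESeq2 called 1527 of 15540 genes (9.83%), 598 of them lower in GF mice. Leaving out 1 library at a time gave 622 to 1260 genes in all, 413 to 779 higher and 206 to 481 lower, and 2 to 9 genes of the 4 partner lists against 8 with all libraries; GF 6 gave the fewest (622 and 2). Fewer than 6 partner genes passed without CONV-R 2, 4, 5 or 6 or GF 2 as well (3 or 4 genes), and 3 without both GF 6 and CONV-R 3. *Ciita* turned negative in that last fit (-0.079). Of the 5 most similar genes, 2 were shared without GF 6, and 4 or 5 under other scalings. Same-numbered libraries were not paired by the labels, and their deviations correlated at -0.01 to 0.20; with a replicate block 1096 genes, 5 of the 10 and 7 partner genes passed, and *Irf8* and *Gbp7* did not (adjusted p = 0.0516 and 0.0933 by edgeR). Of 410 comparisons of single named genes with an alternative, 351 kept direction and side of the threshold, 58 no longer passed and 1 reversed. For these changes the cause was not tested. *H2-DMa*, *H2-DMb1*, *Ciita* and *Cd86* each rest on fewer than 250 counts per group, and the part of depth in their values was not tested.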
